A study of Mus musculus with 12 samples.

Results

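The cell cycle and p53 genes described here are the 117 genes of the blood expression table whose symbols carry the names of cyclins and their kinases, Cdc, Mcm, Orc and E2f proteins, kinesins, mitotic kinases, centromere proteins, the anaphase-promoting complex, Rad and checkpoint proteins, or p53 and its partners. The rule reads the symbol and no measured value, it was applied to 8003 genes, and all 117 are listed as mRNA. The table came from 6 blood libraries of C57BL/6 mice aged 15 months, 3 from control mice (Ctrl) and 3 from mice of the *A. muciniphila* group (Akk). The labels call the controls normal and the treatment a membrane protein of Akkermansia muciniphila, with 8 weeks in the treatment field of the Akk group and 6 weeks in a protocol field that all samples share. The methods of the study describe gavage of the bacterium itself or of vehicle after antibiotics, and state that RNA was taken from mice in which colonization of the gut did not succeed. Blood cells of every type were sequenced together from oligo(dT)-purified mRNA on a BGISEQ-500, so fewer cells of a type and less RNA per cell cannot be told apart.

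A cell that divides passes from G1 through DNA replication in S phase to G2 and mitosis. D-type cyclins with Cdk4 and Cdk6 phosphorylate the Rb family, which frees E2F factors to transcribe replication genes. Mcm and Orc proteins license the origins, and mitotic kinases, kinesins and centromere proteins move the chromosomes. The transcription factor p53, encoded by Trp53, is held low by the ubiquitin ligase Mdm2 and is stabilised through the kinases Atm, Atr, Chek1 and Chek2 after DNA damage. Most circulating leukocytes do not divide.

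The name rule also took genes whose products work elsewhere. Cdc42 is a small GTPase of the actin cytoskeleton with effectors named after it, Cdc37 is a co-chaperone of Hsp90, many kinesins carry cargo along microtubules in resting cells, and Cdk5rap1 modifies mitochondrial tRNA. These genes are described under their own roles.

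Promoters of the replication and mitotic genes hold the elements through which the cycle is read, and a few are shown for that reason. The RefSeq promoter set (GRCm38.p6) had a window, from 250 bases before to 50 after a start site, for 99 of the 117 genes. The E2F element was searched on both strands as TTTCCCGC or TTTCGCGC or TTTGCCGC or TTTGGCGC, and capitals mark it in these 60-base stretches before a start site. A start site can lie inside the annotated gene, as it does here for Cdc6, Mcm7, Chek2, Kif22, Kif24 and Trp53.
Cdc6, chr11:98907987-98908046, plus strand: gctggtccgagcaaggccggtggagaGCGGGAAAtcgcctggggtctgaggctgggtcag
Mcm6, chr1:128359719-128359778, minus strand: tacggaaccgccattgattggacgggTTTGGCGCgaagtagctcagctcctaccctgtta
Mcm7, chr5:138172015-138172074, minus strand: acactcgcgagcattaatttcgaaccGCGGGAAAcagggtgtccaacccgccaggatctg
Rbl1, chr2:157204535-157204594, minus strand: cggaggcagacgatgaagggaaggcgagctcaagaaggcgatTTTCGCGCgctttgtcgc
Chek2, chr5:110839805-110839864, plus strand: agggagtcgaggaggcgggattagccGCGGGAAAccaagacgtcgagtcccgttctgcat

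The cell cycle genes homology region (CHR), an element of promoters that are active in G2 and mitosis, was searched on both strands as TTTGAA or TTCGAA. Capitals mark it upstream of a start site of 2 of the kinesins that were grouped here as mitotic.
Kif22, chr7:127042421-127042480, minus strand: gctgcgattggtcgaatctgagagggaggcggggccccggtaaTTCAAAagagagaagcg
Kif24, chr4:41464849-41464908, minus strand: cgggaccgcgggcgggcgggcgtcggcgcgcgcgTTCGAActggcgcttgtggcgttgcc

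The 250 bases before the start site used for Trp53 held no E2F or CHR match and 1 CCAAT box, marked on its reverse strand.
Trp53, chr11:69580109-69580358, plus strand: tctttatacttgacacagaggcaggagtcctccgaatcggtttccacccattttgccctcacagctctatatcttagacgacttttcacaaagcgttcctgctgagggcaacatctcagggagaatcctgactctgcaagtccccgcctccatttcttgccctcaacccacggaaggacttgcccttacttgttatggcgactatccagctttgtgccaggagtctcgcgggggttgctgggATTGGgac

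The E2F element was present in the windows of 12 genes, 12.1% of the 99, against 4.71% of the 6438 genes of the blood table with a window and 2.6% of all 27025 genes in the promoter set. Of the 12 origin licensing and replication genes with a window, 6 held it, and none of the 5 mitotic kinesins did. The CHR was found in 23.2% of the 99 genes, in 16.4% of the blood table and in 21.7% of all genes. All 5 kinesins grouped as mitotic that had a window held one, whereas 1 of the 12 replication genes did. CCAAT boxes were found for 49.5% of the 99, 42.4% of the table and 41.1% of all genes. A gene had 1.17 windows on average among the 99 and 1.22 among all genes, and forward and reverse matches can share bases, as they do in Mcm6. A match describes the letters of the window and not a bound site.

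Few of the 117 genes were abundant in blood. The values are FPKM, in which fragments are divided by the length of the transcript and by the mapped total, so levels may be compared between genes. A mean over the 6 libraries of at least 1 FPKM was reached by 25 genes, 21.4% of the 117, against 29.6% of the whole table, and 28 genes were below 0.1 FPKM. Among the 702 single values, 40 were listed at 0. The same 5 genes were taken in each library, those with the highest mean over the 6 libraries, led by Ccnd3 and Cdc42. They held 43.1% to 59.0% of the summed FPKM of all 117.

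One library stood apart. In Ctrl 1 the 117 genes summed to 478.92 FPKM, in Ctrl 2 to 122.77 and in Ctrl 3 to 71.11, and in Akk 1, 2 and 3 to 85.66, 64.38 and 67.91 FPKM. Ctrl 1 alone was the highest of the 6 libraries for 114 genes, 97.4%, and for 97.9% of the table. As a share of the summed FPKM of the table the 117 genes took 0.676%, 0.628% and 0.658% in the Ctrl and 0.75%, 0.624% and 0.633% in the Akk libraries, so that the gap of Ctrl 1 was that of the table and the groups overlapped. Results are therefore also given without Ctrl 1 and after centring, that is, after subtracting from each library its median log2 value over the table. The table holds genes that the authors had called changed, nearly all as lower. Centring therefore also takes out any decrease that these genes share, and a centred value is relative to these genes only.

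**Figure D1:**
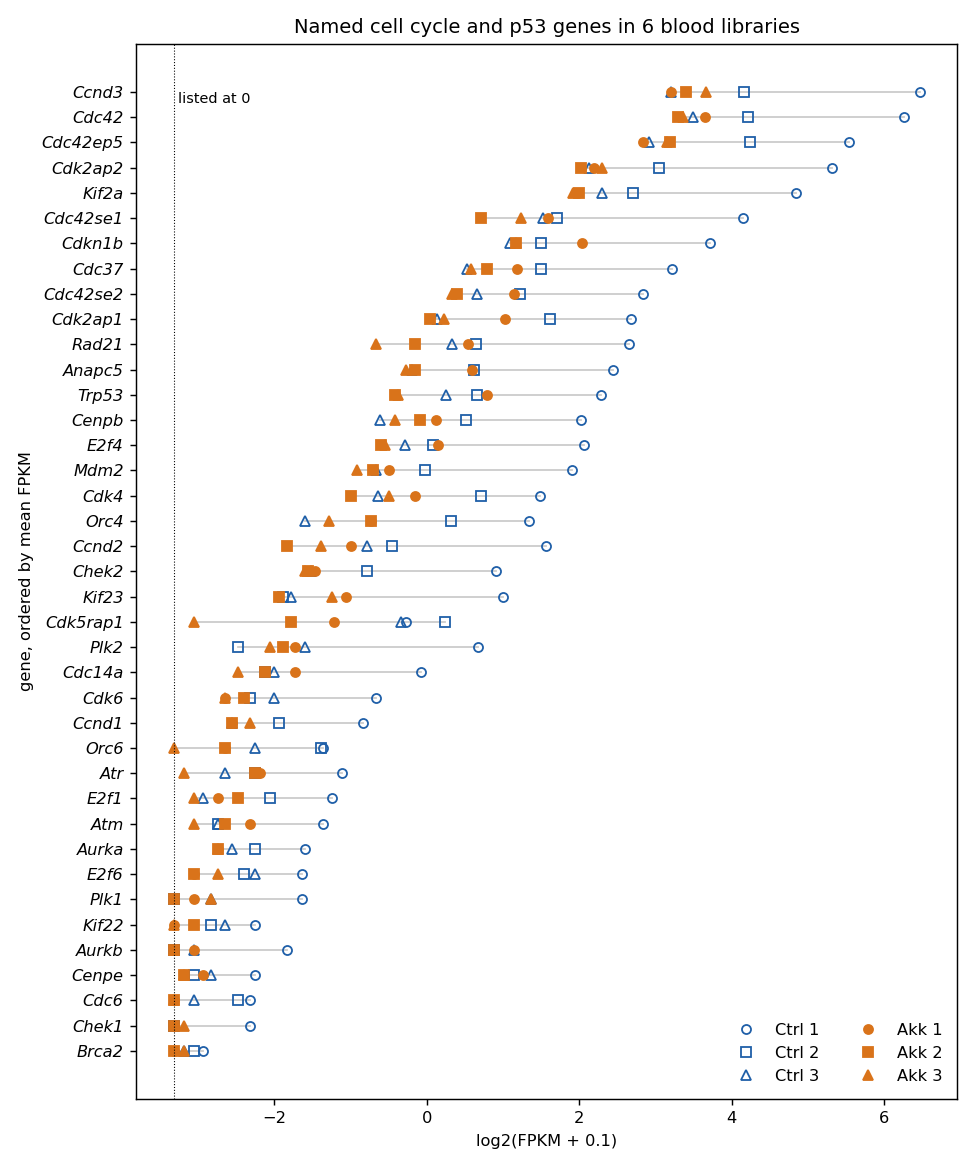
Levels of 39 named cell cycle and p53 genes as log2(FPKM + 0.1) on the horizontal axis, 1 row per gene in order of mean FPKM, with open symbols for the 3 Ctrl and filled symbols for the 3 Akk blood libraries. Ctrl 1 lies far to the right for nearly every gene, Cdk5rap1 is highest in Ctrl 2, and the mitotic genes at the bottom lie near the dotted line that marks a listed 0.

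Trp53 was at 4.75, 1.48 and 1.09 FPKM in Ctrl 1, 2 and 3 and at 1.62, 0.65 and 0.67 FPKM in Akk 1, 2 and 3 (NCBI gene 22059, chr11:69580348-69591873). Akk 1 was above 2 of the 3 Ctrl libraries, so the groups overlapped. The group means were 2.44 ± 2.01 and 0.98 ± 0.55 FPKM (SD, n = 3). On the log2(FPKM + 0.1) scale, on which all log2 fold changes here are given and which understates those of low genes, the difference was -1.07 (standard error, SE, 0.92, limma adjusted p = 0.487). After centring it was -0.15, and without Ctrl 1 it was -0.46. A two-sided exact permutation test over the 6 libraries gave p = 0.3, and p = 0.6 after centring, where 0.1 is the smallest p that 3 against 3 can give. Groups without overlap always give this smallest p in that test, so it only restates the gap.

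Mdm2 (NCBI gene 17246, chr10:117688875-117710758), the ligase that p53 itself induces, was at 3.65, 0.88 and 0.53 FPKM in the Ctrl and at 0.61, 0.51 and 0.43 FPKM in the Akk libraries. Akk 1 again lay above Ctrl 3. It differed by -1.11 on the log2 scale (SE 0.92, limma adjusted p = 0.487), -0.20 after centring and -0.36 without Ctrl 1. Within a library, Mdm2 stood to Trp53 at a ratio of 0.616 ± 0.142 in Ctrl and 0.601 ± 0.207 in Akk libraries (SD, n = 3, exact permutation p = 1.0). All 8 ratios of this kind were chosen after the values were seen. The other 6 genes named after p53 ran from Trp53inp1, a p53-induced autophagy protein at 3.44, 0.64 and 0.80 FPKM in the Ctrl and 0.85, 0.46 and 0.47 FPKM in the Akk libraries, to Trp53rkb, which was at most 0.1 FPKM. None of these 8 genes separated the groups, beside 15.4% of the table lower without overlap and 0.175% higher. Their median log2 fold change was -0.80, with 0.12 after centring and -0.24 without Ctrl 1.

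The D-type cyclins, which carry growth signals into G1, were led by Ccnd3. Ccnd3 (NCBI gene 12445, chr17:47505051-47599689) was at 88.5, 17.76 and 9.14 FPKM in the Ctrl and at 9.12, 10.49 and 12.59 FPKM in the Akk libraries. Ctrl 3 lay below 2 of the Akk libraries, and the log2 fold change of -1.19 (SE 0.96) became -0.26 without Ctrl 1. It made up 94.3% to 97.7% of the summed FPKM of Ccnd1, Ccnd2 and Ccnd3 in every library. Ccnd2 (NCBI gene 12444, chr6:127125162-127152188) was lower in each Akk library than in each Ctrl library, with 2.86, 0.63 and 0.48 FPKM in the Ctrl and 0.40, 0.18 and 0.28 FPKM in the Akk libraries. The log2 fold change of Ccnd2 was -1.52 (SE 0.92, limma adjusted p = 0.487) and -0.79 without Ctrl 1, and after centring its groups, at -0.61, still did not overlap (exact permutation p = 0.1, the smallest possible). Ccnd1 stayed at or below 0.46 FPKM. The ratio of Ccnd3 to Ccnd2 within a library was 26.1 ± 6.23 in Ctrl and 42.0 ± 17.9 in Akk libraries (SD, n = 3, exact permutation p = 0.3, adjusted p = 0.48 over 8 ratios), and the groups overlapped.

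Of the kinases that pair with these cyclins, Cdk4 was at 2.69, 1.53 and 0.54 FPKM in the Ctrl and at 0.80, 0.40 and 0.61 FPKM in the Akk libraries, with Ctrl 3 inside the range of the Akk libraries. Its log2 fold change was -1.06 (SE 0.92). Exons of Tspan31 on the other strand share 19.7% of the exon bases of Cdk4, and strand was not stated, so reads of both genes cannot be told apart there. Cdk6 was lower, at 0.53, 0.10 and 0.15 FPKM against 0.06, 0.09 and 0.06 FPKM, and did not overlap between the groups before centring. Ccng1, a cyclin of the damage response, was at 3.19, 1.25 and 0.72 FPKM against 1.23, 0.42 and 0.57 FPKM, and its relative Ccng2 at 4.01, 0.97 and 0.81 FPKM against 1.26, 0.73 and 0.51 FPKM, and both overlapped between the groups.

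Cdkn1b encodes p27, an inhibitor that holds cyclin and Cdk complexes inactive in resting cells. Its levels were 13.0, 2.72 and 2.02 FPKM in the Ctrl and 3.98, 2.15 and 2.15 FPKM in the Akk libraries. All 3 Akk libraries lay above Ctrl 3, and the log2 fold change of -0.64 (SE 0.93, limma adjusted p = 0.524) turned to 0.17 without Ctrl 1 and to 0.27 after centring. The ratio of Cdkn1b to Trp53 was 2.14 ± 0.515 in Ctrl and 2.99 ± 0.465 in Akk libraries (SD, n = 3, exact permutation p = 0.2, adjusted p = 0.48 over 8 ratios). Cdkn2aipnl, which takes its name from a partner of the Cdkn2a product Arf, was at 2.26, 0.85 and 0.66 FPKM against 0.60, 0.32 and 0.46 FPKM without overlap.

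E2f4, a mostly repressive E2F of resting cells, was the main E2F of the set. Its levels were 4.07, 0.96 and 0.72 FPKM in the Ctrl and 1.01, 0.56 and 0.58 FPKM in the Akk libraries, and Akk 1 lay above 2 Ctrl libraries. The activators E2f1 and E2f3 reached 0.32 and 0.50 FPKM in Ctrl 1 and no more than 0.14 FPKM elsewhere. E2f4 took 74.7% ± 4.20 of the FPKM of the listed E2f genes in Ctrl and 81.8% ± 3.00 in Akk libraries (SD, n = 3). Its 3 Akk shares of 84.9%, 78.9% and 81.7% lay above the 3 Ctrl shares of 75.8%, 70.1% and 78.3% (exact permutation p = 0.1, adjusted p = 0.48 over 8 ratios). These ratios were chosen after the values were seen. E2f6, a repressor that binds Polycomb proteins, did not overlap between the groups, at 0.22, 0.09 and 0.11 FPKM against 0.02, 0.02 and 0.05 FPKM. The pocket protein Rbl2 was at 2.21, 0.37 and 0.43 FPKM against 0.55, 0.39 and 0.35 FPKM, and Rbl1 at 0.99, 0.21 and 0.11 FPKM against 0.23, 0.14 and 0.09 FPKM, both with overlap.

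**Figure D2:**
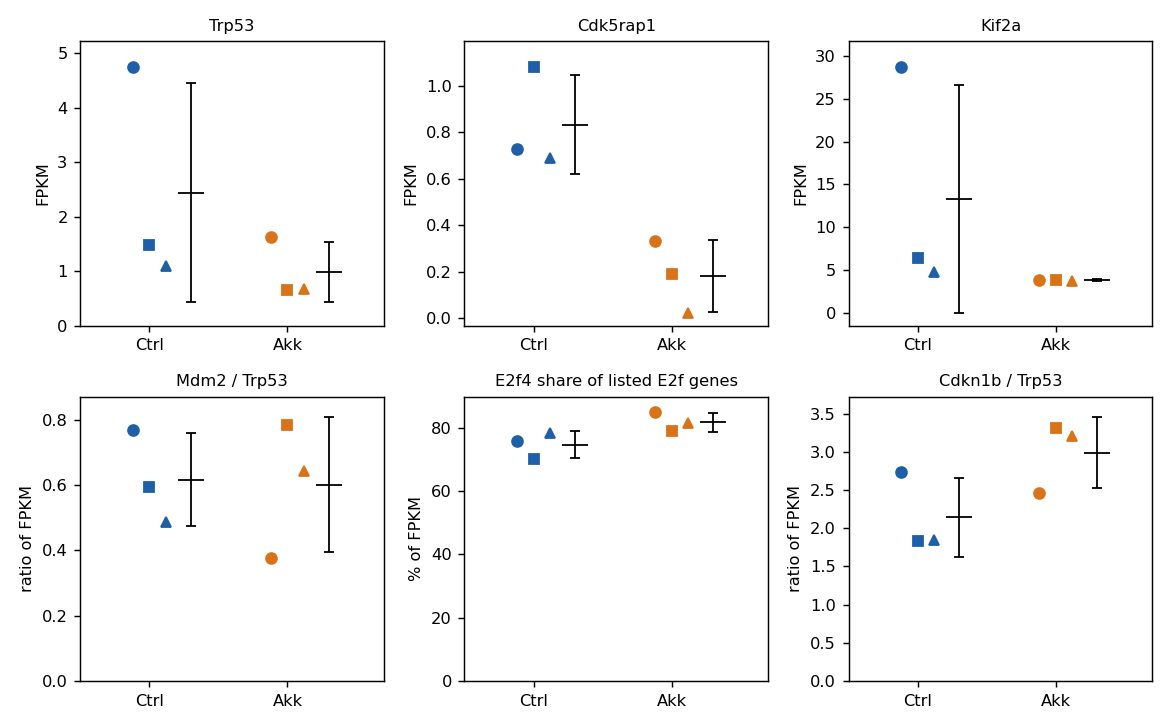
FPKM of Trp53, Cdk5rap1 and Kif2a (top) and 3 ratios or shares formed within each library (bottom) for the 3 Ctrl and 3 Akk blood libraries, where circles, squares and triangles are replicates 1, 2 and 3 and the black bars are mean ± SD. The Cdk5rap1 and Kif2a values do not overlap between the groups, Trp53 does, and the ratio of Mdm2 to Trp53 has means of 0.616 and 0.601.

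Origin licensing genes were low. Mcm6, a subunit of the replicative helicase with an E2F element shown above, was at 1.38, 0.49 and 0.30 FPKM in the Ctrl and at 0.42, 0.24 and 0.17 FPKM in the Akk libraries. Its partner Mcm7 was at 1.16, 0.51 and 0.25 FPKM against 0.38, 0.28 and 0.22 FPKM, and the groups overlapped for both. Cdc6, which loads the helicase onto origins, had 0.10, 0.08 and 0.02 FPKM in Ctrl 1, 2 and 3 and a listed 0 in each Akk library. Orc6, a subunit of the origin recognition complex, was at 0.29, 0.28 and 0.11 FPKM in the Ctrl and at 0.06, 0.06 and 0.00 FPKM in the Akk libraries. Orc6 differed by -1.20 on the log2 scale (SE 0.60, limma adjusted p = 0.487) and -1.05 without Ctrl 1. Ctrl 1 and Ctrl 2 were nearly level for Orc6 and Cdc6, unlike for most of the 117 genes. With Mcm8 these were the 3 of the 13 licensing and replication genes that were lower without overlap, beside 15.4% of the table. After centring none of the 13 was, though a listed 0, as for Cdc6, takes its centred value from the library median alone. The median log2 fold change of the 13 was -0.84 (0.07 after centring).

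The mitotic genes lay near the floor of the table, where a value has 2 decimals. Plk1, the kinase that drives mitotic entry, was at 0.22, 0.00 and 0.04 FPKM in the Ctrl and at 0.02, 0.00 and 0.04 FPKM in the Akk libraries. Aurkb, of the chromosomal passenger complex, was at 0.18, 0.00 and 0.02 FPKM against 0.02, 0.00 and 0.00 FPKM, and the centrosomal kinase Aurka at 0.23, 0.11 and 0.07 FPKM against 0.05 in each Akk library. The spindle checkpoint kinase Bub1b was at most 0.27 FPKM. Among mitotic kinesins Kif23, which builds the midbody in cytokinesis, was the highest, at 1.89, 0.17 and 0.19 FPKM in the Ctrl and at 0.38, 0.16 and 0.32 FPKM in the Akk libraries. It differed by -0.52 with all libraries and by 0.42 without Ctrl 1. Kif22, with the CHR shown above, was at 0.11, 0.04 and 0.06 FPKM against 0.00, 0.02 and 0.00 FPKM, without overlap. The 6 mitotic kinases and checkpoint genes and the 6 mitotic kinesins had median log2 fold changes of -0.55 and -0.45, which the added 0.1 pulls toward 0 at these levels. Rounding to 2 decimals limits what most of these values can show, and the size of that limit was not tested.

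The anaphase-promoting complex, the ubiquitin ligase that ends mitosis and is also present in resting cells, was measured through 9 genes, of which Anapc5 was the highest. Anapc5 was at 5.34, 1.43 and 0.77 FPKM in the Ctrl and at 1.40, 0.80 and 0.73 FPKM in the Akk libraries. None of the 9 separated the groups, beside 15.4% of the table lower without overlap. Their median log2 fold change was -0.80 (-0.15 without Ctrl 1). Among 6 centromere proteins Cenpb, which binds a satellite repeat, was the highest, at 3.95, 1.33 and 0.55 FPKM against 0.99, 0.84 and 0.65 FPKM. Cenpc1 was the only one of the 6 whose groups did not overlap, beside 15.4% of the table lower without overlap. Cenpe, a motor of the kinetochore, was at most 0.11 FPKM. Plk2, a stress-induced kinase, reached 1.49 FPKM in Ctrl 1 and 0.08 to 0.23 FPKM in the other 5 libraries. The phosphatase gene Cdc14a was at 0.85 FPKM in Ctrl 1 and at 0.08 to 0.20 FPKM elsewhere.

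Of the damage kinases, Chek2, whose promoter is shown above, was at 1.77, 0.48 and 0.25 FPKM in the Ctrl and at 0.26, 0.24 and 0.23 FPKM in the Akk libraries, with Ctrl 3 below Akk 1. Atm and Atr, which start the damage signal, were at 0.29 and 0.36 FPKM in Ctrl 1 and at 0.01 to 0.12 FPKM elsewhere, and Chek1 was above 0.01 FPKM in Ctrl 1 alone. Rad21, a subunit of the cohesin ring, was the highest of 9 recombination and repair genes, at 6.20, 1.46 and 1.16 FPKM in the Ctrl and at 1.35, 0.80 and 0.53 FPKM in the Akk libraries. Rad21 differed by -1.30 on the log2 scale (SE 0.92), -0.39 after centring and -0.58 without Ctrl 1. Brca2 was at most 0.03 FPKM. Rad50, of the complex that senses double-strand breaks, was at 0.57, 0.18 and 0.11 FPKM against 0.10, 0.07 and 0.08 FPKM. It was the 1 of the 9 recombination and repair genes without overlap, beside 15.4% of the table.

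The genes that carry a cell cycle name but work elsewhere held much of the signal. Cdc42 was at 76.44, 18.35 and 11.09 FPKM in the Ctrl and at 12.44, 9.67 and 10.19 FPKM in the Akk libraries, with Akk 1 above Ctrl 3. Its effectors Cdc42ep5, Cdc42se1 and Cdc42se2 and the co-chaperone Cdc37 followed, with log2 fold changes between -1.28 and -0.90, and between -0.51 and -0.16 without Ctrl 1. Cdk2ap2 and Cdk2ap1, named after the kinase Cdk2, are not counted among these genes. Cdk2ap2 was at 39.63, 8.14 and 4.26 FPKM against 4.47, 3.97 and 4.83 FPKM, and Cdk2ap1 at 6.28, 2.95 and 1.00 FPKM against 1.93, 0.93 and 1.07 FPKM. A near-identical transcript of another gene exists for Cdk2ap1, Mcm7 and Cdc5l, so their values are uncertain.

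Kif2a (NCBI gene 16563, chr13:106958996-107022355), a kinesin that takes microtubules apart at their ends, was at 28.68, 6.40 and 4.82 FPKM in the Ctrl and at 3.86, 3.90 and 3.69 FPKM in the Akk libraries. The Akk libraries lay close together and below every Ctrl library. The difference was -1.31 on the log2 scale (SE 0.94, limma adjusted p = 0.487), -0.53 without Ctrl 1 and -0.40 after centring, where the groups still did not overlap (exact permutation p = 0.1), whereas with quantile normalization they did. Exons of Dimt1 on the other strand share 19.2% of its exon bases. Cdc42ep3, an effector of Cdc42 named here after its values were seen, was at 3.39, 0.85 and 0.63 FPKM against 0.50, 0.24 and 0.37 FPKM, and it differed by -1.55 with all libraries, by -0.86 without Ctrl 1 and by -0.64 after centring, again without overlap.

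Cdk5rap1 (NCBI gene 66971, chr2:154222011-154373038) had the log2 fold change of the greatest size among the 117 genes with 0.1 added, though with 0.01 added that of Cdc6 was larger (-2.74 against -2.70), and by the ratio of means several genes near the floor lay lower. Unlike 114 of the 117 genes, it was not highest in Ctrl 1. Its levels were 0.73, 1.08 and 0.69 FPKM in the Ctrl and 0.33, 0.19 and 0.02 FPKM in the Akk libraries. The highest value was in Ctrl 2, and every Akk library was below every Ctrl library. The means of 0.833 ± 0.215 and 0.18 ± 0.155 FPKM (SD, n = 3) stood at a ratio of 0.216, and at 0.203 without Ctrl 1. On the log2 scale it differed by -1.90 (SE 0.91, limma adjusted p = 0.487) and -1.97 without Ctrl 1 (limma adjusted p = 0.602). After centring, its log2 fold change was -0.98 and Ctrl 1 lay among the Akk libraries (exact permutation p = 0.3), and with Ctrl 1 also left out it was -1.72 (limma adjusted p = 0.19).

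Across the set, the test called none of the 117 genes in either direction at a 1.5-fold difference with an adjusted p up to 0.05, as it called 0% of the table as lower and 0% as higher. Adjusted p ran from 0.487 to 0.72, and standard errors from 0.29 to 0.96 on the log2 scale. At an unadjusted p under 0.05, 3 genes were lower, Cdc6, Cdk5rap1 and Orc6, which are 2.56% of the set against 3.4% of the table. All 117 genes had the lower mean in the Akk group. The table holds genes that the authors had called changed, nearly all of them as lower, so the shared direction is largely set by how the table was made. The median log2 fold change was -0.80 for the set and -0.87 for the table, -0.21 and -0.24 without Ctrl 1, and 0.11 and 0.04 after centring.

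All 3 Akk values lay below all 3 Ctrl values for 18 of the 117 genes, 15.4%, and for 15.4% of the table. These 18 were Aurka, Ccnd2, Cdc42ep3, Cdc6, Cdk5rap1, Cdk6, Cdkn2aipnl, Cenpc1, E2f6, Kif13a, Kif13b, Kif18b, Kif1bp, Kif22, Kif2a, Mcm8, Orc6 and Rad50. No gene of the set had all 3 Akk values above the Ctrl values, against 0.175% of the table. After centring, 3 genes remained lower without overlap, Ccnd2, Cdc42ep3 and Kif2a, 2.56% of the set against 4.44% of the table, and none was higher, against 4.01%. Of the 25 genes with a mean of at least 1 FPKM, only Kif2a was without overlap, 4.0% against 20.1% of the table genes at that level, and of the 28 below 0.1 FPKM 7 were, 25.0% against 15.4%.

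Without Ctrl 1, the Akk mean was at most 1/1.5 of the Ctrl mean for 46 genes, 39.3% of the set, against 33.6% of the table. It was at least 1.5 times the Ctrl mean for 4 genes, Chek1, Kif23, Kif24 and Mcm9, 3.42% against 3.32% of the table. Chek1 and Kif24 were at most 0.01 FPKM in these 5 libraries, a single step of the last decimal. Mcm9 was a few such steps apart, at 0.05 and 0.06 FPKM in Ctrl 2 and 3 and at 0.08, 0.09 and 0.08 FPKM in the Akk libraries. Exons of Asf1a on the other strand share 19.2% of the exon bases of Mcm9. Akk 1 was the highest of the Akk libraries for 79 genes and lay above Ctrl 3 for 71, while Akk 2 and Akk 3 were both below Ctrl 2 and Ctrl 3 for 52. Shares of the table were not counted for these last comparisons, so the counts describe no trait of the set. The table median was 0.35 FPKM in Ctrl 2, 0.22 in Ctrl 3, and 0.30, 0.18 and 0.19 FPKM in Akk 1, 2 and 3.

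**Figure D3:**
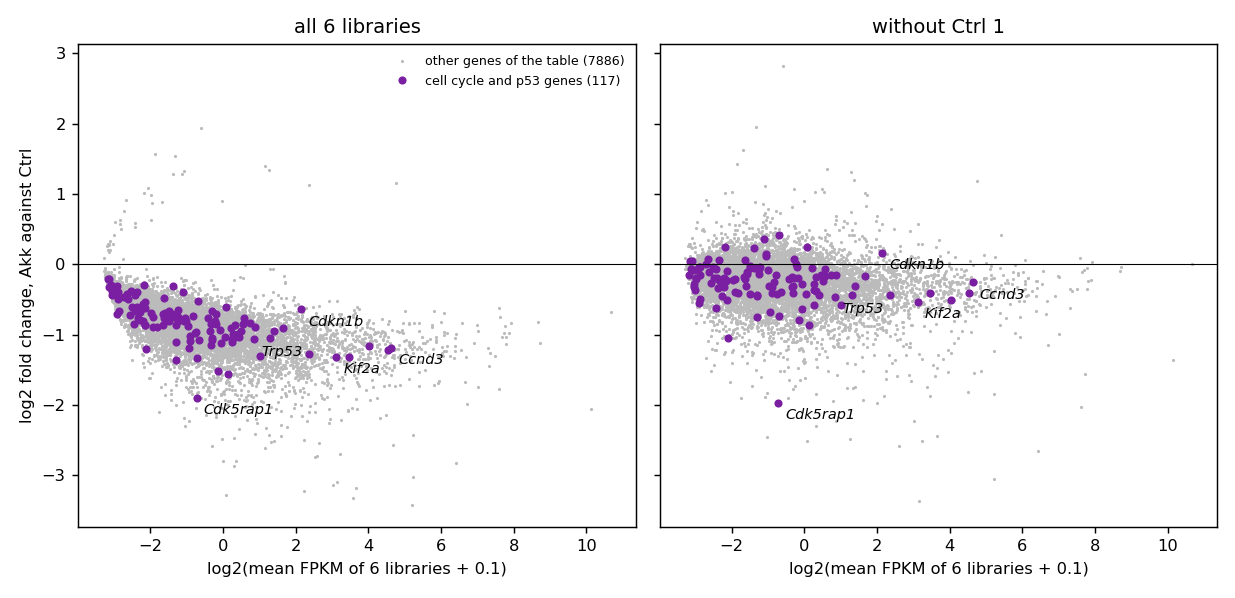
Log2 fold change of Akk against Ctrl, on the log2(FPKM + 0.1) scale, against the log2 mean level for the 117 cell cycle and p53 genes (purple) and the other genes of the blood table (grey), with all 6 libraries (left) and without Ctrl 1 (right). The purple points lie within the grey cloud around medians of -0.80 and -0.21, and Cdk5rap1 is the lowest purple point in both panels.

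After centring, the medians of the roles ran from -0.08 for the 7 cell cycle cyclins and Cdks and -0.07 for the 14 other Cdc genes to 0.45 for the 4 damage kinases and 0.46 for the 6 mitotic kinesins. By level, the centred median was 0.49 for the 28 genes below 0.1 FPKM, 0.11 for the 64 genes between 0.1 and 1 FPKM and -0.11 for the 25 above, and 0.44, 0.07 and -0.19 for the table. Genes with an E2F element had a median log2 fold change of -0.81 (n = 12) and genes without one -0.77 (n = 87). For the CHR the medians were -0.71 (n = 23) and -0.80 (n = 76).

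**Figure D4:**
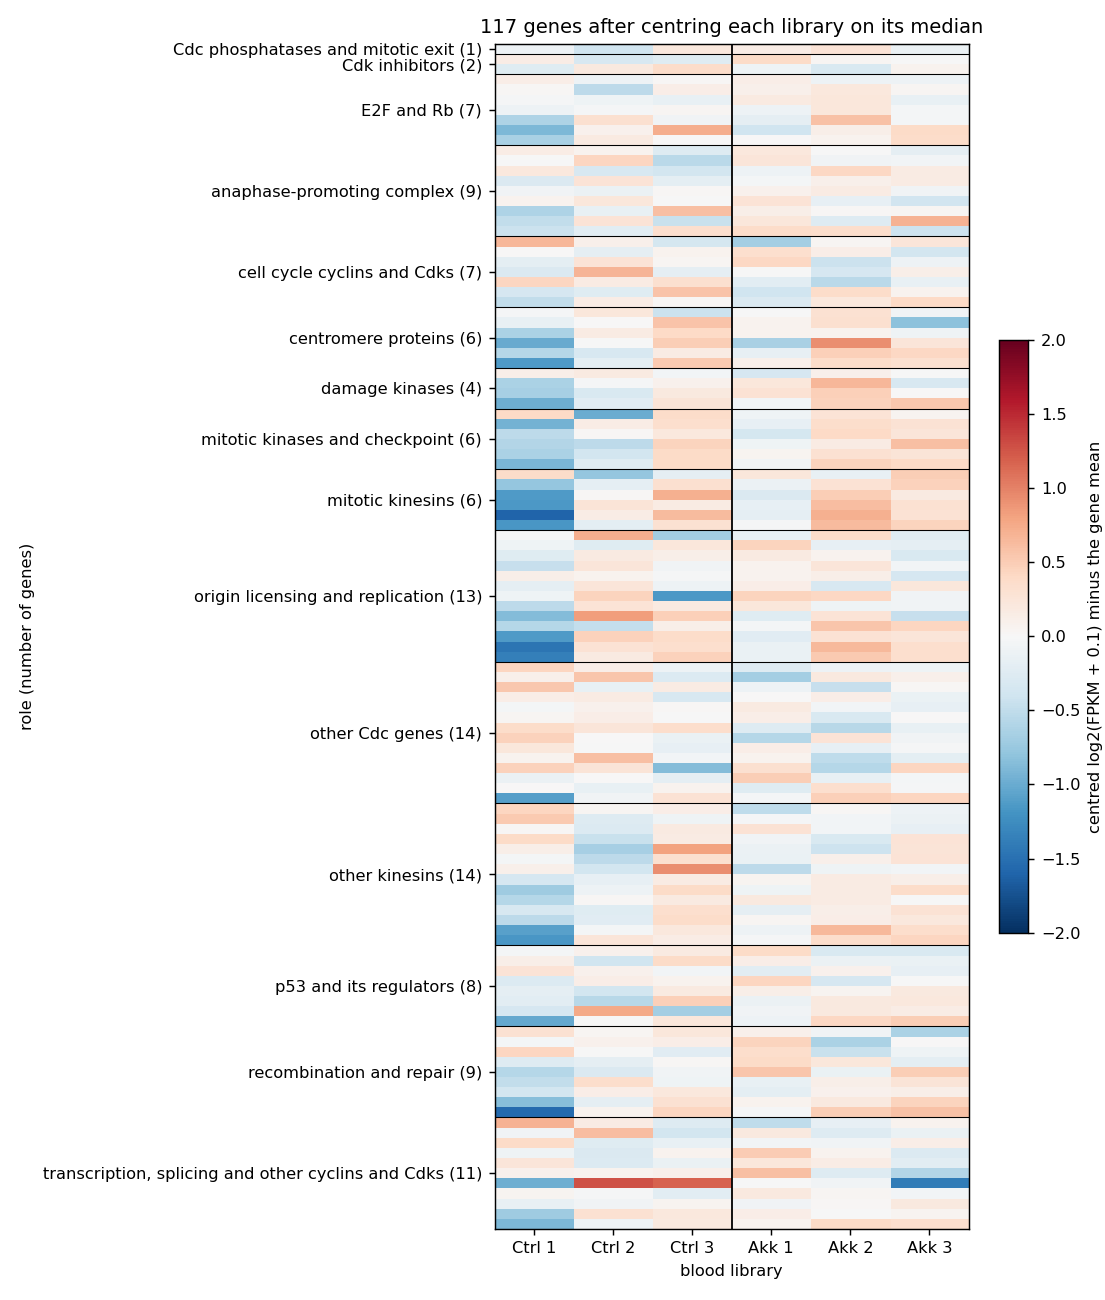
Centred log2(FPKM + 0.1) minus the mean of each gene for all 117 genes (rows, grouped by role) in the 6 blood libraries (columns), from blue (lower) to red (higher). Most rows are pale, many low genes are blue in Ctrl 1, and the dark red and blue row near the bottom is Cdk5rap1.

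Further genes of the same pathways, outside the name rule, were read from lists. Of 32 other genes of the p53 pathway 19 were in the table, led by the antiproliferative gene Btg2 at 22.06, 1.67 and 1.40 FPKM in the Ctrl and 3.40, 1.21 and 2.58 FPKM in the Akk libraries. None of the 19 passed the test and 1 was, before centring, lower without overlap, Rrm2b, a p53-induced ribonucleotide reductase subunit at 0.56, 0.18 and 0.12 FPKM against 0.09, 0.05 and 0.03 FPKM. The counts without overlap stand beside 15.4% of the table. Of 39 S phase genes 15 were in the table with 0 lower without overlap, of 44 G2 and M phase genes 17 with 2 (Smc2 and Spag5), of 8 genes of the DREAM complex 6 with 1 (Lin37), and of 50 DNA damage genes 30 with 2 (Ercc1 and Palb2), and none passed the test. Median log2 fold changes of these lists were between -0.81 and -0.68, and between 0.11 and 0.24 after centring. Centring left none of the 6 genes named here for this separation apart. Casp8, of the p53 pathway, was then lower without overlap, beside 4.44% of the table. Hells (S phase), Ckap2l (G2 and M phase), Lin52 (DREAM) and Ercc4 (DNA damage) were then higher, beside 4.01%. In this order their means were 0.087, 0.095, 0.163 and 0.135 FPKM.

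Markers of blood cell types were read in the same way, and none passed the test. The 6 NK cell genes summed to 14.48 to 63.35 FPKM in the Ctrl and to 6.76 to 12.01 FPKM in the Akk libraries, with 5 of the 6 lower without overlap, beside 15.4% of the table, and 3 after centring (Gzma, Prf1 and Ncr1), beside 4.44%. The 6 monocyte genes summed to 11.82 to 223.39 FPKM and to 5.08 to 14.78 FPKM, with 1 lower without overlap and 2 after centring. For the 10 of 12 neutrophil genes in the table the sums were 237.12 to 1233.3 FPKM and 130.13 to 339.68 FPKM, and 5 were lower without overlap but none after centring. The 3 of 8 T cell genes summed to 3.30 to 8.94 FPKM and 1.20 to 3.46 FPKM, the 2 of 7 B cell genes to 2.76 to 12.88 FPKM and 2.17 to 6.02 FPKM, and the 7 platelet genes to 321.61 to 3225.79 FPKM and 404.25 to 516.87 FPKM. Lower without overlap were 2 of these T cell genes, none after centring, no B cell gene, and 1 platelet gene, Itgb3, before and after centring. The sums of the 2 groups overlapped for every cell type but NK cells and the red cell gene. None of these markers was at 0 in any library. Of 13 red cell genes only Gata1 was in the table, at 2.55 to 10.62 FPKM and 1.51 to 2.03 FPKM, and the globins were not analysed here. Their part in the values of the cell cycle genes was not tested.

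Only 3 of the 117 genes are also in the table of the hippocampus, which holds 284 genes from the same design. Aurkb was at 0.25, 0.22 and 0.09 FPKM in the Ctrl and at 0.13, 0.00 and 0.07 FPKM in the Akk hippocampus, and E2f8, a repressive E2F, at 0.28, 0.21 and 0.12 FPKM against 0.16, 0.19 and 0.15 FPKM. Cdc20b was at most 0.05 FPKM in all but 2 hippocampal libraries. The groups overlapped for each of the 3. Trp53 was not analysed here in that tissue.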

How the data were processed

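RNA of 6 blood samples was sequenced (BGISEQ-500). The FPKM that the authors deposited, with 2 decimals, came from cleaned reads through HISAT2, Bowtie2 and RSEM per the methods of the study, whereas the submitters' processing notes name TopHat2, Cufflinks and GRCm38. The strand setting of the counting is not given in the sources used here. The deposited table lists 8003 genes, as many as the study called changed in blood, so the adjustment and the spread rest on selected genes. Depth is unknown, and having 3 libraries per group limits the precision.

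The 117 genes were taken by symbol. They and the lists and roles were chosen with earlier results of these data known. Groups came from the labels. Log2(FPKM + 0.1) was compared with limma 3.58.1 in R 4.3.3 (intensity trend, no scaling, two-sided, Benjamini-Hochberg over 8003 genes), with calls at 1.5-fold and an adjusted p up to 0.05, and the fit was tested on simulated data. Each blood title has a number of its own that recurs in the hippocampus, as for 1 mouse per library, though the labels do not say what it stands for, and p-values measure the spread between these samples. Single genes and 8 ratios were also compared by exact permutation, two-sided. Named genes were Trp53 and 34 listed regulators where the table has them (18 of 35), the 10 highest by mean, those higher in Akk, up to 5 without overlap at a mean of at least 1 FPKM, the highest of each role, and the 5 with the smallest p. Sequences and positions are from RefSeq, GRCm38.p6, and copies and overlaps from GENCODE by blastn 2.17.0 (at least 95% identity over 50% of the length). Alternatives were the pseudocount, a level filter, centring, quantile normalization, no trend, a replicate block, the fold threshold and leaving out each library.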

Additional observations from a re-analysis of the deposited data

How the results depend on the processing

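No gene of the set passed the thresholds under any alternative that was run. Of the values recomputed under the alternatives, 286 kept their direction and call, 10 moved and 12, all of single genes, turned direction. The median of the set, which changed sign with centring and with quantile normalization, is counted among the 10. The median log2 fold change of the set was -0.80 with all libraries, 0.11 with centring, 0.06 with quantile normalization, 0.04 with centring and Ctrl 1 left out, and -1.21 to -0.21 with each library left out in turn. Genes lower without overlap numbered 18, 3 with centring (Ccnd2, Cdc42ep3 and Kif2a), 3 with quantile normalization (Ccnd2, Cdc42ep3 and Cdc6), 1 among genes with a mean of at least 1 FPKM, and 18 to 66 with a library left out, the most without Ctrl 3 and 52 without Akk 1. Genes higher without overlap numbered 4 with quantile normalization (Cdkn1b, Kif24, Mcm9 and Cdk5rap2) and 0 to 1 with a library left out, the 1 without Ctrl 1. The share of the table was not counted with quantile normalization or with a library left out. Fewer libraries make a gap between the groups easier for any gene, so these counts describe no trait of the set. Directions turned with quantile normalization for Trp53 (0.07), Ccnd3 (0.03), Cdkn1b (0.55), Cdc42 (0.04) and E2f4 (0.12), with centring for Cdkn1b (0.27), Cdc6 (0.21), Kif22 (0.26) and E2f6 (0.06), and with centring and Ctrl 1 left out for Cdkn1b (0.42) and E2f4 (0.02). Cdc6 was listed at 0 in each Akk library, and Kif22 was at 0.00, 0.02 and 0.00 FPKM there. At a listed 0 the centred value is set by the library median alone. Table genes with a mean below 0.1 FPKM had a median log2 fold change of 0.44 after centring. With a library left out, Cdkn1b ran from -1.15 to 0.17, turning only without Ctrl 1. The cause was not tested. Centring by the library medians moved the median of all genes from -0.87 to 0.04.

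The labels do not tie samples of the same number across groups, and samples of the same number did not deviate together (correlations 0.036, -0.011 and -0.096). With a replicate block the median log2 fold change was -0.80 and 0 genes of the set passed, with the smallest adjusted p at 0.401 from limma. The depth is unknown, and 2 decimals limit every gene under about 0.1 FPKM.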
